A study of Homo sapiens with 6 samples.

Results

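The protocadherins are the largest branch of the cadherin superfamily of calcium-dependent cell-surface adhesion proteins. Genes were taken as members when their symbol named an alpha (PCDHA), beta (PCDHB) or gamma (PCDHG) clustered protocadherin or a numbered, unclustered protocadherin, which gave 67 of the 58024 genes in the expression table. These were 16 alpha, 16 beta and 22 gamma genes, 54 clustered genes in all, and 13 unclustered genes. The naming rule used no expression value, but the family was chosen with earlier results of these data known. RNA sequencing had been performed on parental C4-2B cells and on C4-2B enzalutamide resistant cells, with 3 libraries each. C4-2B is an established human prostate cancer line, a subline of LNCaP-derived C4-2 cells from xenografts in castrated nude mice. Enzalutamide is an antiandrogen drug. The resistant cells had been passaged in rising enzalutamide from 1 to 20 µM for a minimum of 6 months, with 5 µM as the later maintenance dose, while the parental cells had been carried in dimethyl sulfoxide vehicle over the same period. RNA was taken under 10 µM enzalutamide, and the description does not say clearly whether the parental cells received it as well. The resistant line was 1 pooled population of surviving cells, and nothing states that the 3 libraries of a group came from separate cultures, so p-values measure the spread between these libraries only, which may be technical.

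The clustered protocadherins lie in 3 arrays on the long arm of chromosome 5. In the alpha and gamma arrays every variable exon has its own promoter and encodes the extracellular cadherin repeats, the membrane span and a short tail, and it is spliced to a common set of constant exons that encode the shared cytoplasmic end. The beta genes are mostly single-exon genes without constant exons. Neurons express combinations of these isoforms that give single cells different surface identities, and homophilic recognition between matching sets underlies self-avoidance of neurites. Promoter choice is known to depend on a conserved sequence element in each promoter, on CTCF and cohesin, which loop promoters to distant enhancers, and on DNA methylation, which silences unused promoters. Unclustered protocadherins sit at separate places in the genome and fall mainly into delta-1 (PCDH1, PCDH7, PCDH9, PCDH11X, PCDH11Y) and delta-2 (PCDH8, PCDH10, PCDH17, PCDH18, PCDH19) groups, which differ in their cytoplasmic motifs.

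The promoter sequences of the arrays are given first, because most of them hold a short element in the spelling of their array. RefSeq promoters (GRCh38.p14, 250 bases before to 50 bases after the annotated start) matched 58 of the 67 members, 47 of them clustered. Both strands were searched for 3 spellings of the element, which were chosen by reading the members' own promoters. GATGTCGCT was present in 9 of 13 alpha promoters (69.2%) and in 0.128% of all 27305 promoters. GGTGGCGCT was present in 13 of 14 beta promoters (92.9%) and in 0.619% of all promoters. GNCGCTGTT was present in 13 of 20 gamma promoters (65.0%), in 1 beta promoter, where it overlapped the beta spelling, and in 1.02% of all promoters. None of the 3 spellings was found in the 11 unclustered promoters, a count from which nothing is read at these low background shares. The letters CGCT, which all 3 spellings contain, were found in 71.9% of all promoters and by themselves separate nothing. Of the 47 clustered promoters, 35 held the spelling of their own array, and the median distance of the CGCT from the start site was 48 bases upstream in alpha, 61 in beta and 48 in gamma. A match describes letters and is not a measured binding site. The windows below hold 36 bases each on the plus strand of chromosome 5, with the searched element in capitals, and they cover members with high and with low levels in each array.
PCDHA4, chr5:140806977-140807012: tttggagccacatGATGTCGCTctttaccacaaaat
PCDHA8, chr5:140841128-140841163: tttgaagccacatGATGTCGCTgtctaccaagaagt
PCDHA10, chr5:140855839-140855874: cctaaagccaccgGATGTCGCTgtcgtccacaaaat
PCDHA12, chr5:140875242-140875277: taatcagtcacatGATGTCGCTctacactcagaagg
PCDHB2, chr5:141094542-141094577: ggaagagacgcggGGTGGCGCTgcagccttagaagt
PCDHB4, chr5:141121721-141121756: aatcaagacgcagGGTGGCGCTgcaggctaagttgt
PCDHB7, chr5:141172564-141172599: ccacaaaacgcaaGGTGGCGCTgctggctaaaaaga
PCDHB13, chr5:141213863-141213898: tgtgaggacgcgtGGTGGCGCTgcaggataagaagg
PCDHGA4, chr5:141354958-141354993: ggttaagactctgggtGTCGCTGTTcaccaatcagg
PCDHGA10, chr5:141412929-141412964: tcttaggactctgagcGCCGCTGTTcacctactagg
PCDHGB4, chr5:141387615-141387650: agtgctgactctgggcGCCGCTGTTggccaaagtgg
PCDHGB5, chr5:141397861-141397896: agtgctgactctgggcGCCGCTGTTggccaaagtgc
The windows of PCDHGB4 and PCDHGB5 differed in 1 of 36 letters, and the values of both genes are given with the gamma array. The promoters of the arrays were poor in CpG, the target of DNA methylation. The median number of CpG in 300 bases was 7 in alpha, 7.5 in beta and 7 in gamma promoters, against 15 in unclustered members and 16 over all promoters.

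Expression was measured as FPKM, fragments counted per unit of transcript length and scaled to the mapped fragments of the library. The libraries were estimated from the smallest steps in these values to hold 13300000 to 20300000 reads, at which a single read over 3800 bases corresponds to 0.0137 to 0.0208 FPKM, so many parental values below 0.1 FPKM rest on a few reads. Libraries of one group correlated at 0.911 to 0.929 and libraries of different groups at 0.782 to 0.802 (Pearson's r across genes, which are not independent replicates). As a check of the label, all 7 luminal prostate markers reported here were expressed in every library. Of these, 5 fell, among them KLK3, which encodes prostate-specific antigen, and 1, the keratin gene KRT8, rose. Of 6 neuron markers, TUBB3, SNAP25 and MAP2 rose and NEFL fell, SYT1 did not pass the test, and RBFOX3, the marker of mature neurons, was below 0.1 FPKM in every library. The summed level of the neuron list was 29.0 to 34.1 FPKM in parental and 182 to 200 FPKM in resistant libraries, most of it TUBB3. Of 6 fibroblast markers, DCN, which was at 0 in all parental libraries, and LUM rose and PDGFRB fell, and the summed level was 8.04 to 10.9 FPKM in parental and 8.50 to 14.95 FPKM in resistant libraries. The part of these marker changes in the protocadherin values was not tested. In bulk RNA, a change in the share of cells that express a gene and a change in the RNA per cell cannot be told apart.

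Protocadherins were upregulated in C4-2B enzalutamide resistant cells across all 3 arrays and at most unclustered sites. The mean over the 6 libraries reached the filter of 0.1 FPKM in 63 of 67 members, and 52 of these were called higher and 0 lower (limma on log2(FPKM + 0.1), Benjamini-Hochberg adjusted p below 0.05 over all 24468 genes tested). Over all genes tested, 22.1% were called higher and 22.3% lower. All 16 tested alpha genes, all 14 tested beta genes, 14 of 22 gamma genes and 8 of 11 tested unclustered genes were called higher. The other 11 tested members did not pass in either direction, 8 of them gamma genes. Values of the 3 resistant libraries lay entirely above those of the 3 parental libraries in 56 of the 63 tested members, against 26.6% of all genes tested, and entirely below them in 1 member, against 28.1%. At a stricter adjusted p of 0.01, 46 members were called higher.

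The filter bears on these counts, because many members passed it only through their level in the resistant cells. In 38 of the 67 members all 3 parental values were below 0.1 FPKM, and these comprised 16 alpha, 12 beta, 3 gamma and 7 unclustered genes. In 36 of these 38 all 3 resistant values were at least 0.1 FPKM, the exceptions being PCDH12 and PCDH15. For comparison, of 5141 protein-coding genes with all parental values below 0.1 FPKM, 14.3% had all resistant values at or above it, and in the reverse direction the share was 3.73%. The remaining 29 members had at least 1 parental value of 0.1 FPKM or more. Of the 28 of these that were tested, 17 were called higher.

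**Figure D1:**
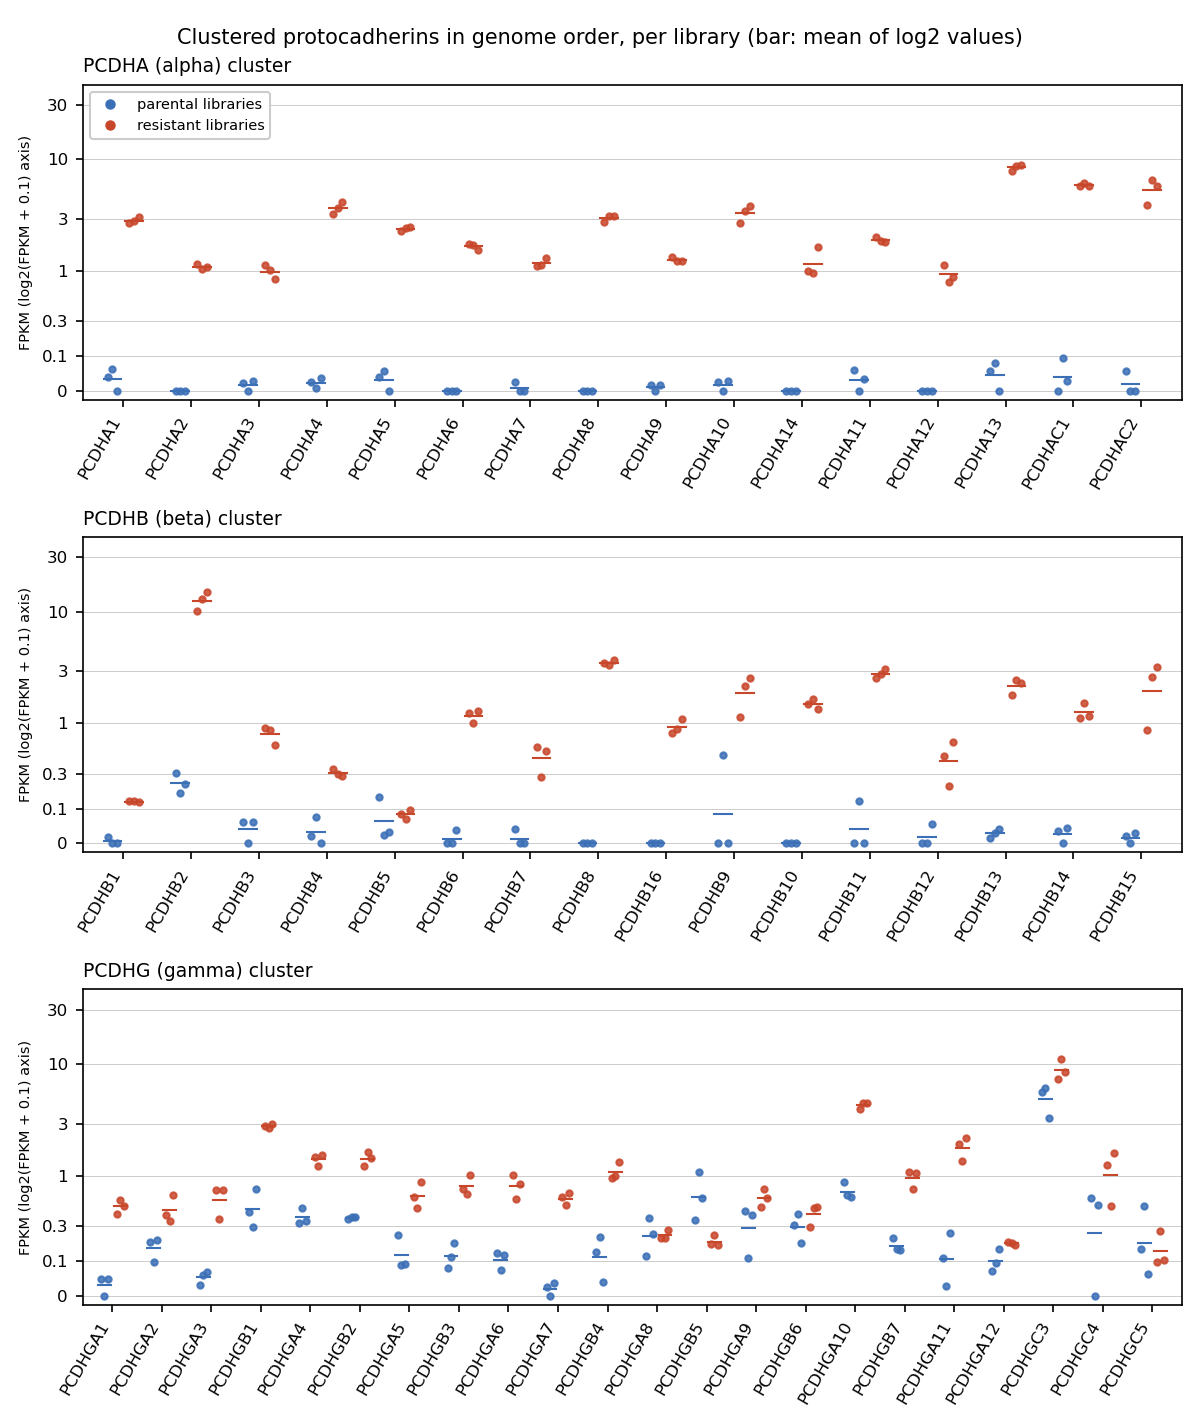
Level of each clustered protocadherin in every library, in genome order within each array, on a log2(FPKM + 0.1) axis labelled in FPKM; blue points are the 3 parental and red points the 3 resistant libraries, and bars are means of the log2 values. Alpha and most beta genes lay at or near 0 in parental cells and separated fully from the resistant cells. Most gamma genes were already detected in parental cells, many at low levels, and PCDHGB5 lay lower in resistant cells.

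The alpha array as a whole changed from near silence to expression, and every gene of it was assigned higher values. All 48 parental values were between 0 and 0.0919 FPKM, and 27 of them were 0. The 48 resistant values ran from 0.779 to 8.87 FPKM, so that no alpha gene overlapped between groups. Summed over the 16 genes, the alpha level was 0.305, 0.279 and 0.135 FPKM in parental and 42.4, 47.2 and 48.0 FPKM in resistant libraries (0.240 ± 0.0918 against 45.9 ± 3.04, mean ± SD, n = 3). An exact permutation test of the sum, two-sided, gave the smallest p that 3 against 3 libraries allow, p = 0.1. Sums that do not overlap can give no other value, so the test adds nothing to that separation, here and for the sums below. The alpha genes are on the plus strand between 140786136 and 141012347 of chromosome 5 (GRCh38).

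The highest alpha levels belonged to the 3 genes that lie last in the array, next to the constant exons. PCDHA13 had parental values of 0.0500, 0.0759 and 0 FPKM and resistant values of 7.94, 8.74 and 8.87 FPKM. Its log2 fold change was 5.96 (SE 0.32, adjusted p = 4.01e-05). PCDHAC1 and PCDHAC2 encode the C-type isoforms, whose promoters are regulated apart from the alternate isoforms and which many neurons share. PCDHAC1 rose from 0, 0.0919 and 0.0214 FPKM to 5.83, 6.24 and 5.86 FPKM, a log2 fold change of 5.52 (SE 0.35, adjusted p = 7.11e-05). PCDHAC2 rose from 0.0499, 0 and 0 FPKM to 3.98, 6.64 and 5.88 FPKM, a log2 fold change of 5.58 (SE 0.36, adjusted p = 8.07e-05). These 3 genes ranked above every other alpha gene in each resistant library.

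The lowest alpha genes in the resistant cells still lay well above every parental value. PCDHA3 had 0.0161, 0 and 0.0214 FPKM in parental and 1.12, 1.01 and 0.825 FPKM in resistant libraries (log2 fold change 3.27, SE 0.37, adjusted p = 0.000751). PCDHA12 was listed at 0 in all parental libraries and had 1.14, 0.779 and 0.879 FPKM in resistant libraries (adjusted p = 0.000732). PCDHA2 was also listed at 0 in all parental libraries and had 1.15, 1.05 and 1.09 FPKM in resistant libraries (adjusted p = 0.000437). PCDHA6, PCDHA8 and PCDHA14, an annotated pseudogene, were the other alpha genes at 0 throughout the parental libraries, and a fold change cannot be stated for these 5. PCDHA4, whose element is printed with the promoters, rose from 0.00679 to 0.0298 FPKM in parental to 3.28 to 4.25 FPKM in resistant libraries. The remaining alpha genes, PCDHA1, PCDHA5, PCDHA7, PCDHA9, PCDHA10 and PCDHA11, had resistant means between 1.19 and 3.41 FPKM. Over the 11 alpha genes with a fold change the median log2 fold change was 4.56, against -0.08 over the 21925 genes tested that had reads in both groups.

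How the alpha total divides among single genes is uncertain. The study's quantification treated the whole array as 1 locus, the constant exons are common to the genes, and between 22.5% and 100% of the 50-base words of an alpha gene's transcripts were found in another member. All exonic words of PCDHA14 were also in PCDHA10. That division affects the sum over the array through the transcript lengths used for FPKM. Other genes share the alpha locus in the quantification, and how reads were divided between them and the members is uncertain as well.

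The beta array showed the same direction from a slightly higher parental level. Summed over 16 genes, the beta level was 0.632, 0.900 and 0.477 FPKM in parental and 27.3, 33.6 and 37.2 FPKM in resistant libraries (0.669 ± 0.214 against 32.7 ± 4.99, mean ± SD, n = 3, exact permutation p = 0.1, two-sided, the smallest possible). PCDHB2 was the highest beta gene in both groups, with 0.309, 0.172 and 0.228 FPKM in parental and 10.1, 12.98 and 14.8 FPKM in resistant libraries. Its log2 fold change was 5.25 (SE 0.26, adjusted p = 3.35e-05), and the groups did not overlap. PCDHB8 was listed at 0 in all parental libraries and had 3.54, 3.39 and 3.77 FPKM in resistant libraries (adjusted p = 5.77e-05). PCDHB11 had 0, 0.131 and 0 FPKM in parental and 2.62, 2.85 and 3.12 FPKM in resistant libraries (log2 fold change 4.48, SE 0.44, adjusted p = 0.000419). PCDHB10 and PCDHB16 were the other beta genes listed at 0 in all parental libraries, with resistant means of 1.53 and 0.923 FPKM.

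At the low end of the beta array, resistant levels stayed below 1 FPKM. PCDHB4 had 0.0160, 0.0677 and 0 FPKM in parental and 0.344, 0.298 and 0.286 FPKM in resistant libraries (log2 fold change 1.71, SE 0.43, adjusted p = 0.0193). Without parental replicate 0 or parental replicate 2 its call was lost, with log2 fold changes of 1.66 and 1.55, as it was with quantile normalization, at 1.27. PCDHB12 had 0, 0 and 0.0464 FPKM against 0.472, 0.212 and 0.652 FPKM (log2 fold change 2.17, SE 0.51, adjusted p = 0.0143). PCDHB7 had 0.0321, 0 and 0 FPKM against 0.589, 0.278 and 0.528 FPKM (log2 fold change 2.32, SE 0.45, adjusted p = 0.00705). In both genes the resistant replicate 1 was the lowest of its group yet above every parental value. PCDHB9 had 1 high parental library, with 0, 0.487 and 0 FPKM against 1.14, 2.21 and 2.63 FPKM, and its call (adjusted p = 0.0128) was lost without resistant replicate 2, at a log2 fold change of 3.23. PCDHB15 had its lowest resistant value in replicate 0, at 0.863 FPKM, against 2.68 and 3.29 FPKM in the other two, and 0 to 0.0227 FPKM in the parental libraries. PCDHB3, PCDHB6, PCDHB13 and PCDHB14 also rose, with resistant means between 0.788 and 2.22 FPKM.

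Of the beta genes, 2 stayed under the filter. PCDHB1, the first gene of the array, had 0.0142, 0 and 0 FPKM in parental and 0.133, 0.131 and 0.128 FPKM in resistant libraries. Its groups did not overlap, and it was called higher when no filter was used. PCDHB5 had 0.152, 0.0177 and 0.0249 FPKM in parental and 0.0805, 0.0632 and 0.0934 FPKM in resistant libraries, so its groups overlapped. Among beta promoters with a match in the promoter table, that of PCDHB1 alone lacked the GGTGGCGCT spelling, and that of PCDHB5 held it. Whether the element bears on these levels was not tested. The beta genes share no exons, and their shared 50-base words ranged from 0% to 45.6% of a gene, with PCDHB8 at the top of that range and 32.8% of its words also in PCDHB13. Restricted to the 26 members of the family with at most 25% of their words shared, 22 were tested and 19 were called higher, 12 of them beta genes. The 26 held 14 beta genes, PCDHA4 as the only alpha gene, and no gamma gene, whose lowest share was 30.7%. The count therefore says little about the alpha and gamma arrays.

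The gamma array differed in that 19 of its 22 genes had a parental value of 0.1 FPKM or more, although most of these values were low. Only 1 gene reached 1 FPKM in every parental library. The median of the parental means over the array was 0.205 FPKM. The summed level was 10.9, 11.4 and 8.78 FPKM in parental and 28.3, 30.5 and 32.4 FPKM in resistant libraries (10.4 ± 1.38 against 30.4 ± 2.04, mean ± SD, n = 3, exact permutation p = 0.1, two-sided, the smallest possible). A single C-type gene, PCDHGC3, made up 52.4%, 54.4% and 38.5% of the parental sum and 26.5%, 36.3% and 26.3% of the resistant sum. PCDHGC3 is the broadly expressed gamma isoform outside the nervous system. It had 5.73, 6.18 and 3.38 FPKM in parental and 7.50, 11.1 and 8.54 FPKM in resistant libraries, without overlap. Its log2 fold change of 0.84 (SE 0.27, adjusted p = 0.0461) lay close to the threshold. The call held without parental replicate 1 and was lost without each of the other 5 libraries, with an adjusted p of up to 0.141 and a log2 fold change between 0.58 and 1.00 over the 6 omissions. Without PCDHGC3 the gamma sum was 5.22, 5.18 and 5.40 FPKM in parental and 20.8, 19.4 and 23.9 FPKM in resistant libraries. The gamma genes have common constant exons, and 30.7% to 71.1% of a gamma gene's words were found in another member. The division of the gamma total among single genes, including the share of PCDHGC3, is therefore uncertain.

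Among the variable gamma genes, 8 of 12 A-type and 5 of 7 B-type genes were called higher. PCDHGA10 was the highest of them, with 0.858, 0.647 and 0.613 FPKM in parental and 4.07, 4.53 and 4.53 FPKM in resistant libraries (log2 fold change 2.49, SE 0.23, adjusted p = 0.000304). PCDHGB1 rose from 0.436, 0.296 and 0.743 FPKM to 2.83, 2.76 and 3.002 FPKM (log2 fold change 2.39, SE 0.34, adjusted p = 0.00189). PCDHGA11 showed the largest fold change of the array and rose from 0.113, 0.0224 and 0.251 FPKM to 1.96, 1.38 and 2.23 FPKM (log2 fold change 3.20, SE 0.49, adjusted p = 0.00243). The groups were fully separated in all 3 genes, although the parental values of PCDHGA11 varied widely among themselves.

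PCDHGA7 was 1 of 3 gamma genes with all parental values below 0.1 FPKM, with 0.0194, 0 and 0.0285 FPKM against 0.611, 0.508 and 0.678 FPKM (log2 fold change 2.59, SE 0.39, adjusted p = 0.00241). PCDHGA4 rose from 0.331, 0.471 and 0.345 FPKM to 1.51, 1.23 and 1.54 FPKM (log2 fold change 1.67, SE 0.30, adjusted p = 0.00492). PCDHGA5 had 0.233, 0.0867 and 0.0877 FPKM in parental and 0.615, 0.475 and 0.868 FPKM in resistant libraries (log2 fold change 1.70, SE 0.44, adjusted p = 0.0211). The PCDHGA5 call was lost without parental replicate 1 or 2 and without resistant replicate 0 or 2, at log2 fold changes between 1.499 and 1.72. PCDHGA1, PCDHGA3, PCDHGA6, PCDHGB2, PCDHGB3, PCDHGB4 and PCDHGB7 also rose, with log2 fold changes between 1.70 and 2.45. The median over the 22 gamma genes was 1.70, below the medians of 4.56 in alpha and 3.51 in beta genes with a fold change. No test of the difference between the arrays was made.

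PCDHGB5 was the 1 member whose values lay lower in the resistant cells without overlap. It had 0.349, 1.08 and 0.610 FPKM in parental and 0.179, 0.235 and 0.174 FPKM in resistant libraries, a log2 fold change of -1.29 (SE 0.47) that did not pass the test (adjusted p = 0.0642). It was called lower without parental replicate 0 (log2 fold change -1.64, adjusted p = 0.0416), and its adjusted p ranged from 0.0287 to 0.153 over 13 alternatives. PCDHGB4, whose printed promoter window is nearly the same, had 0.140, 0.221 and 0.0321 FPKM in parental and 0.943, 0.997 and 1.35 FPKM in resistant libraries (log2 fold change 2.45, SE 0.45, adjusted p = 0.00562). PCDHGA8, which lies between them, had 0.121, 0.369 and 0.243 FPKM against 0.218, 0.217 and 0.272 FPKM (adjusted p = 0.971). The transcripts of these genes overlap in sequence, since 54.6% of the 50-base words of PCDHGB5 and 50.5% of those of PCDHGA8 were also in PCDHGB4, so the division of reads among the 3 genes is uncertain. Of the other gamma genes that did not pass, PCDHGA2 had 0.0957 to 0.205 FPKM in parental and 0.342 to 0.653 FPKM in resistant libraries (adjusted p = 0.0841). PCDHGA9, PCDHGA12 and PCDHGB6 had resistant means of 0.609, 0.185 and 0.419 FPKM against parental means of 0.319, 0.103 and 0.302 FPKM. The C-type genes PCDHGC4 and PCDHGC5 varied most among libraries, with 0.604, 0 and 0.506 FPKM against 1.25, 0.497 and 1.61 FPKM for PCDHGC4 and 0.152, 0.503 and 0.0556 FPKM against 0.0971, 0.265 and 0.103 FPKM for PCDHGC5. Their groups overlapped.

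**Figure D2:**
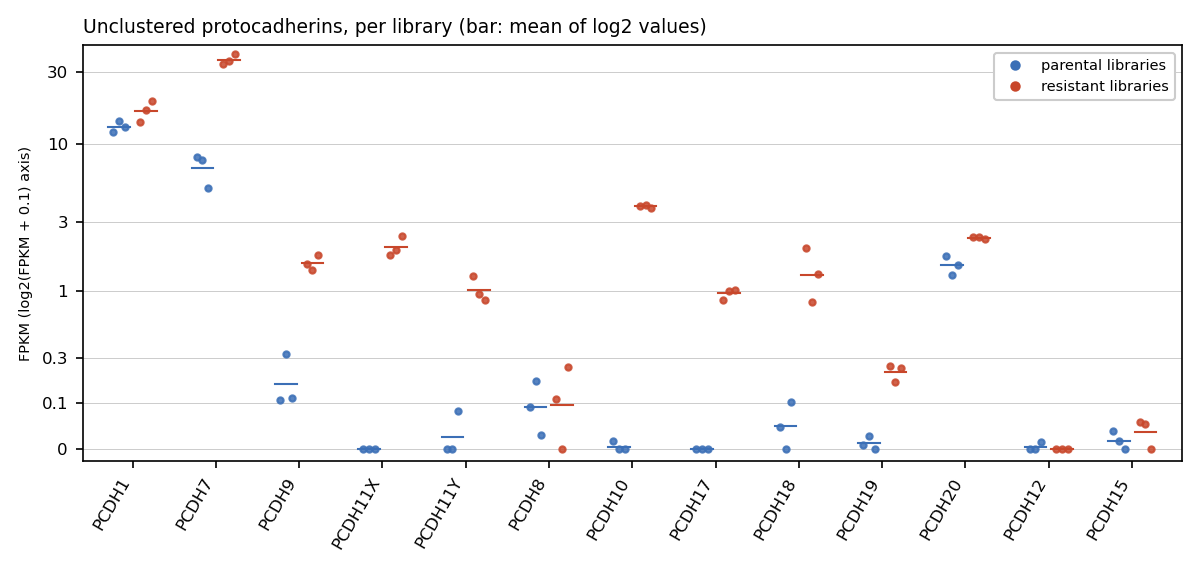
Level of each unclustered protocadherin in every library on a log2(FPKM + 0.1) axis labelled in FPKM, with delta-1 genes first, then delta-2 genes and the other 3; blue points are parental and red points resistant libraries, and bars are means of the log2 values. PCDH7 was the highest gene in resistant cells at 34.0 to 39.3 FPKM, PCDH1 and PCDH20 changed little, and PCDH10, PCDH11X and PCDH17 were at or near 0 in parental cells.

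The unclustered members held both the highest levels of the family and some of its largest changes. Their summed level was 22.4, 24.0 and 20.0 FPKM in parental and 62.2, 65.0 and 72.4 FPKM in resistant libraries (22.1 ± 2.03 against 66.5 ± 5.31, mean ± SD, n = 3, exact permutation p = 0.1, two-sided, the smallest possible). PCDH7 and PCDH1 together made up 90.7% to 92.3% of the parental and 77.3% to 80.8% of the resistant sum. Among delta-1 genes 4 of 5 were called higher, and among delta-2 genes 4 of 5, against 22.1% of all genes tested. The delta-1 count includes both PCDH11X and PCDH11Y, between which the division of reads is uncertain. The delta-2 count includes PCDH19, which was called in 6 of 11 alternatives.

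PCDH7 was the delta-1 gene with the highest resistant level, with 8.23, 7.88 and 5.13 FPKM in parental and 34.0, 35.5 and 39.3 FPKM in resistant libraries. Its log2 fold change was 2.37 (SE 0.19, adjusted p = 0.000203). PCDH1, known from epithelial junctions, was the highest member in parental cells at 12.1, 14.3 and 12.99 FPKM and had 14.04, 16.7 and 19.2 FPKM in resistant libraries. The groups overlapped and the log2 fold change of 0.34 (SE 0.14) did not pass the test (adjusted p = 0.107), although it did so without resistant replicate 0 (0.45, adjusted p = 0.0462, the lowest of its 14 alternatives, which ran up to 0.258). PCDH1 lies on chromosome 5 beyond the gamma array, at 141853090 to 141879246. PCDH9 rose from 0.110, 0.323 and 0.116 FPKM to 1.54, 1.40 and 1.78 FPKM (log2 fold change 2.64, SE 0.40, adjusted p = 0.00245).

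The near-identical X and Y copies of delta-1 PCDH11 were read together, because 56.6% of the 50-base words of either are found in the other. PCDH11X was listed at 0 in all parental libraries and had 1.78, 1.95 and 2.43 FPKM in resistant libraries (adjusted p = 0.000167). PCDH11Y had 0, 0 and 0.0773 FPKM in parental and 1.27, 0.951 and 0.858 FPKM in resistant libraries (log2 fold change 3.20, SE 0.43, adjusted p = 0.00148). Their sum was 0, 0 and 0.0773 FPKM against 3.06, 2.90 and 3.29 FPKM. The sums of the groups did not overlap, and the share of each copy is uncertain.

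Of the delta-2 genes, PCDH10 rose most, from 0.0125, 0 and 0 FPKM to 3.86, 3.96 and 3.73 FPKM (log2 fold change 5.25, SE 0.30, adjusted p = 5.40e-05). PCDH10 is known as a gene that is often silenced by promoter methylation in carcinomas. PCDH17, likewise known for methylation in tumours, was listed at 0 in all parental libraries and had 0.860, 1.00 and 1.02 FPKM in resistant libraries (adjusted p = 0.000587). PCDH18 had 0.0392, 0 and 0.104 FPKM in parental and 2.01, 0.829 and 1.31 FPKM in resistant libraries (log2 fold change 3.31, SE 0.49, adjusted p = 0.00220). PCDH19, the gene of an X-linked epilepsy, stayed low, with 0.00706, 0.0221 and 0 FPKM against 0.253, 0.175 and 0.244 FPKM (log2 fold change 1.56, SE 0.43, adjusted p = 0.0251). Its call was lost without either parental replicate 0 or 2, at log2 fold changes of 1.54 and 1.49, with a pseudocount of 1 FPKM, at 0.28, and with quantile normalization, at 0.95. Without resistant replicate 0 or 2 its mean fell under the filter. PCDH8 was low in both groups, with 0.0896, 0.182 and 0.0248 FPKM against 0.115, 0 and 0.249 FPKM.

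PCDH20 belongs to neither delta list and had 1.77, 1.30 and 1.52 FPKM in parental and 2.37, 2.38 and 2.29 FPKM in resistant libraries. The groups did not overlap, but the log2 fold change of 0.59 (SE 0.21) did not pass the test (adjusted p = 0.0649). It passed when values were scaled to the sum over protein-coding genes, and its adjusted p ran from 0.0258 to 0.140 over 14 alternatives. PCDH12, which is known from endothelial cells, and PCDH15, which is known from hair cells of the inner ear, stayed below 0.1 FPKM in all 6 libraries and were not tested.

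**Figure D3:**
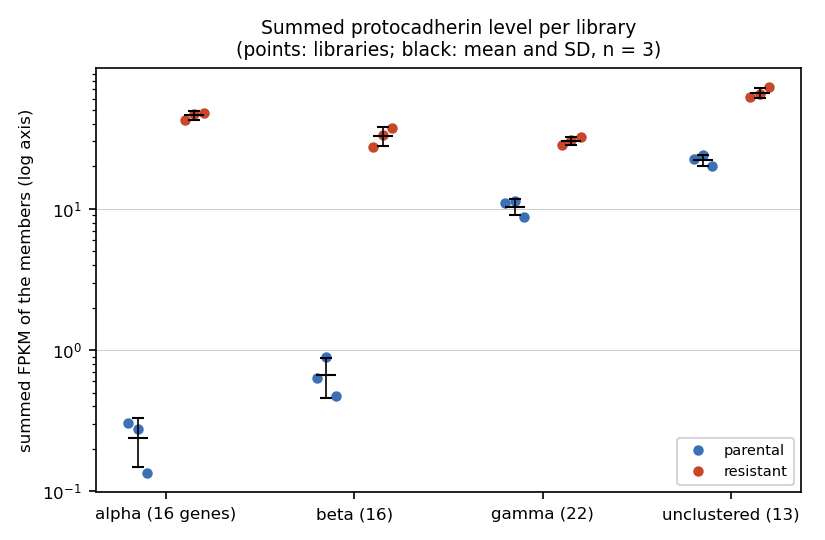
Summed FPKM of the members of each array and of the unclustered genes in every library on a log axis, with parental libraries in blue, resistant libraries in red, and the mean and SD (n = 3) in black. Alpha and beta sums rose from below 1 FPKM to 27.3 to 48.0 FPKM, and gamma and unclustered sums from 8.78 to 24.0 FPKM to 28.3 to 72.4 FPKM.

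Set side by side, 44 of 52 tested clustered genes (84.6%) and 8 of 11 tested unclustered genes (72.7%) were called higher, against 22.1% of all genes tested. Median log2 fold changes were 2.47 over 44 clustered and 2.37 over 9 unclustered genes that had a fold change. These medians leave out the 8 clustered and 2 unclustered tested genes at 0 in all parental libraries. With those genes kept, at values set by the pseudocount, the medians were 3.23 and 2.64. The ratio of resistant to parental mean sums was 191 in alpha, 48.8 in beta, 2.93 in gamma and 3.01 in unclustered members, while the resistant mean sums of the arrays lay within 30.4 to 45.9 FPKM. The alpha and beta ratios rest on parental sums of under 1 FPKM and are imprecise. The clustered sum of 98.0 to 118 FPKM exceeded the unclustered sum of 62.2 to 72.4 FPKM in resistant libraries, and the order was the opposite in parental libraries, at 9.39 to 12.5 FPKM against 20.0 to 24.0 FPKM.

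Protocadherin-named pseudogenes and antisense genes were left out by the naming rule. Of 10 such genes, 5 lie within the arrays on chromosome 5, of which 4 were tested and all 4 rose, and 5 lie on chromosome 13, of which 1, PCDH8P1, was tested and rose. The beta pseudogenes PCDHB18P and PCDHB17P stood at 0 throughout the parental cells and reached 1.70, 1.76 and 0.873 FPKM and 0.834, 0.543 and 1.01 FPKM in resistant libraries (adjusted p = 0.000610 and 0.00137). PCDH8P1, on chromosome 13, was also at 0 in all parental libraries and had 0.419, 0.343 and 1.07 FPKM in resistant libraries (adjusted p = 0.00644). PCDHB19P and PCDHGB8P rose by 1.86 and 1.77 on the log2 scale. Of 6 further genes that shared the alpha locus in the quantification, 0 had a value above 0 in a parental library and 5 had one in a resistant library, up to 3.86 FPKM. Of 12 such genes in the larger beta locus, 3 had a value above 0 in a parental library, up to 0.126 FPKM, and 8 in a resistant library, up to 2.91 FPKM, while the 2 in the smaller beta locus were at 0 in all libraries. Of 6 in the gamma locus, 3 had a value above 0 in a parental library, up to 0.672 FPKM, and 6 in a resistant library, up to 1.57 FPKM. These include transcripts that overlap the arrays, and whether reads were counted by strand is not stated.

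**Figure D4:**
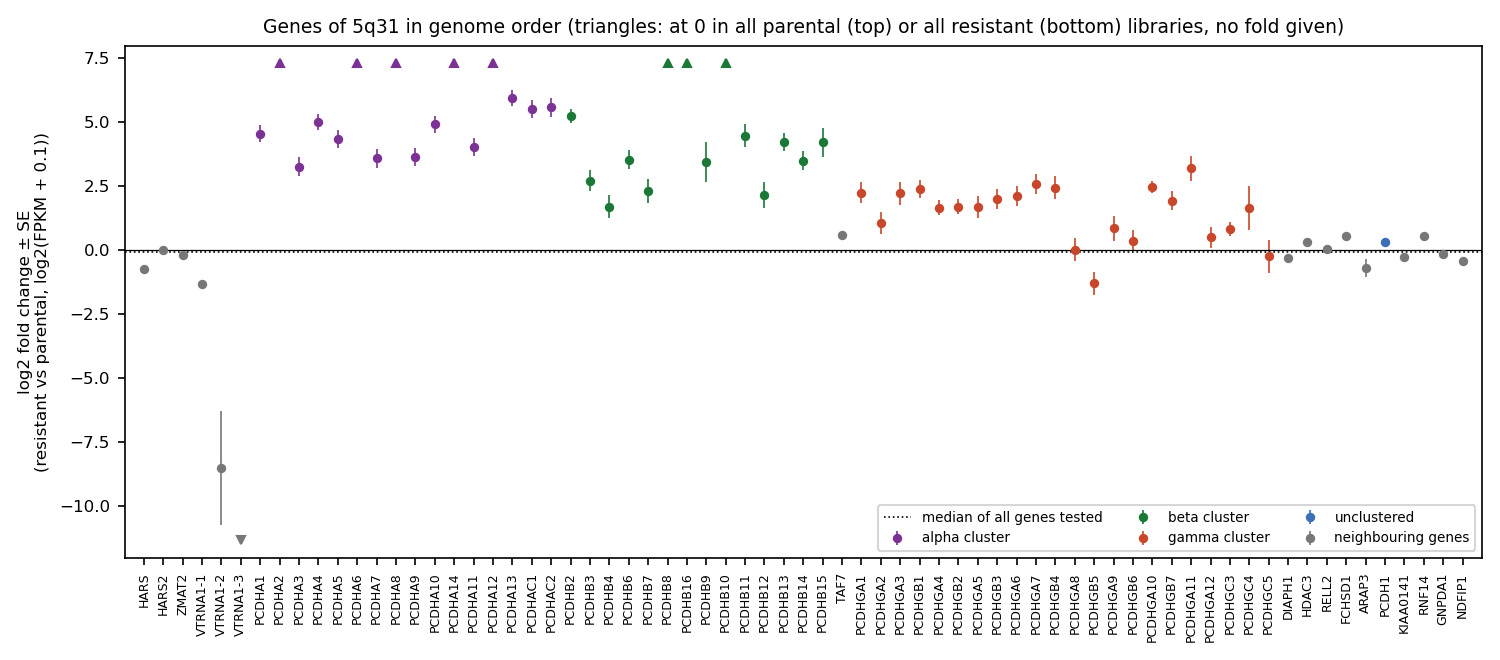
Log2 fold change with its SE (resistant against parental, log2(FPKM + 0.1) scale) of tested genes in genome order across 5q31, coloured by array, with neighbouring genes in grey and PCDH1 in blue; triangles mark genes at 0 in all parental (top) or all resistant (bottom) libraries, and the dotted line is the median of all genes tested. Alpha and beta genes lay above 1.7, most gamma genes between 1 and 3.2, and neighbours other than the vault RNA genes within 0.74 of 0.

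The genes around the arrays were mixed in direction. Of 17 neighbours on 5q31 in the table, 16 were tested, with a median log2 fold change of -0.22. Of these, 3 were called higher (18.8%) and 5 lower (31.2%), against 22.1% and 22.3% of all genes tested. TAF7, a subunit of the general transcription factor TFIID that lies between the beta and gamma arrays, rose from 33.1, 28.2 and 33.9 FPKM to 45.4, 51.1 and 47.8 FPKM (log2 fold change 0.60, SE 0.10, adjusted p = 0.00364). HARS, the histidyl-tRNA synthetase upstream of the alpha array, fell from 58.2, 50.6 and 64.8 FPKM to 33.7, 34.4 and 35.7 FPKM (log2 fold change -0.74, SE 0.10, adjusted p = 0.00188). The vault RNA genes just before the alpha array, small non-coding RNAs, fell as well. VTRNA1-1 went from 406, 495 and 378 FPKM to 184, 184 and 152 FPKM (log2 fold change -1.30, SE 0.13, adjusted p = 0.000415). VTRNA1-3 had 52.8, 227 and 38.6 FPKM in parental libraries and was listed at 0 in all resistant libraries (adjusted p = 9.11e-05), and VTRNA1-2 had 290, 283 and 193 FPKM against 32.9, 0 and 0 FPKM (adjusted p = 0.0213). For transcripts this short, FPKM is sensitive to single reads.

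Genes known to act on protocadherin promoters were mixed in direction. Of 21 such genes, all tested, 8 rose and 2 fell, where 22.1% of all genes tested were called higher and 22.3% lower. Cohesin is loaded, released and held on chromatin by several of them. PDS5B, which regulates cohesin release and maintenance, fell from 55.0, 55.5 and 69.2 FPKM to 8.48, 5.87 and 9.18 FPKM (log2 fold change -2.93, SE 0.19, adjusted p = 8.39e-05). Its paralog PDS5A rose from 37.5, 32.4 and 37.5 FPKM to 82.5, 79.2 and 85.03 FPKM (log2 fold change 1.1997, SE 0.09, adjusted p = 0.000114). The cohesin release factor WAPL rose by 0.60 and the cohesin subunit STAG1 by 0.71 on the log2 scale, whereas RAD21, SMC1A, SMC3, STAG2, NIPBL and MAU2 did not pass the test, with log2 fold changes between -0.25 and 0.21. CTCF itself had 19.1, 17.4 and 20.0 FPKM in parental and 25.7, 28.4 and 28.5 FPKM in resistant libraries (log2 fold change 0.55, SE 0.10, adjusted p = 0.00432).

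**Figure D5:**
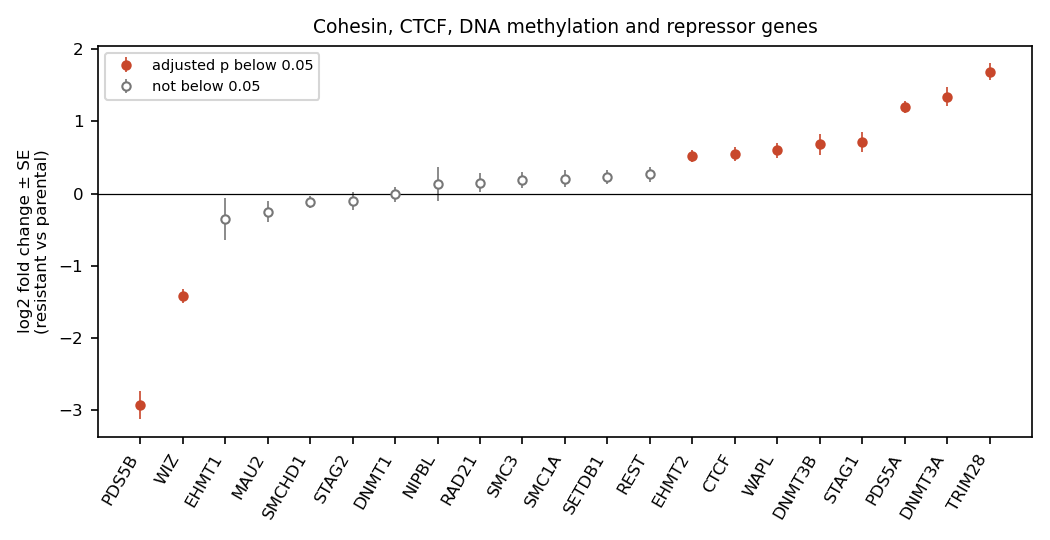
Log2 fold change with its SE (resistant against parental, log2(FPKM + 0.1) scale) of 21 cohesin, CTCF, DNA methylation and repressor genes, ordered by value; filled red points had an adjusted p below 0.05 and open grey points did not. PDS5B and WIZ fell, and 8 genes from EHMT2 to TRIM28 rose.

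On the repressive side, TRIM28, the corepressor that KRAB zinc finger proteins recruit, rose from 608, 480 and 623 FPKM to 1690, 1953 and 1836 FPKM (log2 fold change 1.69, SE 0.12, adjusted p = 0.000108). WIZ, a zinc finger protein that works with the histone methyltransferases EHMT1 and EHMT2, fell from 39.0, 34.7 and 33.5 FPKM to 12.6, 13.6 and 13.5 FPKM (log2 fold change -1.42, SE 0.10, adjusted p = 9.11e-05). The de novo DNA methyltransferase DNMT3A rose from 10.3, 13.5 and 12.9 FPKM to 30.3, 32.9 and 29.5 FPKM (log2 fold change 1.34, SE 0.13, adjusted p = 0.000369). DNMT3B rose by 0.68 and EHMT2 by 0.52 on the log2 scale. DNMT1, SMCHD1, SETDB1, REST and EHMT1 did not pass the test. DNA methylation and factor binding were not measured here.

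Of 23 genes for cytoplasmic partners and proteases of protocadherins, all tested, 8 rose and 4 fell. Over all genes tested the shares were 22.1% higher and 22.3% lower. PTK2B encodes the kinase PYK2, which binds the shared cytoplasmic end of alpha and gamma proteins, and it rose from 55.2, 47.6 and 53.0 FPKM to 140, 164 and 155 FPKM (log2 fold change 1.56, SE 0.09, adjusted p = 5.71e-05). Its relative PTK2, which encodes focal adhesion kinase, did not pass the test, at a log2 fold change of 0.06. The WAVE complex, which couples protocadherins to branched actin, changed in several subunits and in both directions. NCKAP1 rose from 46.0, 45.5 and 43.2 FPKM to 80.7, 73.4 and 78.7 FPKM (log2 fold change 0.79, SE 0.07, adjusted p = 0.000291), and ABI2, CYFIP2 and WASF1 rose by 2.14, 1.10 and 0.96 on the log2 scale. WASF3 fell from 33.5, 26.5 and 32.3 FPKM to 12.3, 12.7 and 11.5 FPKM (log2 fold change -1.33, SE 0.12, adjusted p = 0.000275), and WASF2 fell by 0.82. ADAM10, which encodes a sheddase that cleaves protocadherins, fell by 0.84 on the log2 scale.

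The other cadherins moved in both directions. Of 47 genes of the wider superfamily, 31 were tested, 14 rose (45.2%) and 7 fell (22.6%), against 22.1% and 22.3% of all genes tested. In 24 of the 47 all parental values were below 0.1 FPKM, and every tested gene among these was called higher. They include CDH6, CDH10, CDH17 and CDH23, with resistant means of 6.53, 3.18, 6.36 and 7.88 FPKM. Such genes pass the filter only through their resistant level. CDH3, which encodes P-cadherin of basal epithelium, rose from 3.03, 3.56 and 2.95 FPKM to 41.3, 53.8 and 47.0 FPKM (log2 fold change 3.85, SE 0.14, adjusted p = 1.22e-05). CELSR3, a seven-pass cadherin of planar polarity and axon guidance, rose from 2.44, 2.17 and 2.96 FPKM to 33.4, 33.6 and 30.4 FPKM (log2 fold change 3.64, SE 0.15, adjusted p = 1.59e-05). The type II cadherin CDH7 rose from 0.0357, 0.0186 and 0 FPKM to 10.3, 11.3 and 12.1 FPKM (log2 fold change 6.59, SE 0.27, adjusted p = 1.73e-05). CDH1, which encodes E-cadherin, fell from 349, 304 and 429 FPKM to 189, 186 and 191 FPKM (log2 fold change -0.92, SE 0.13, adjusted p = 0.00157), and the desmosomal cadherins DSG2 and DSC2 fell by 1.63 and 1.74. CDH1 and the desmosomal genes were named because they are the main epithelial cadherins, after their values were seen.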

How the data were processed

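Total RNA libraries were sequenced with 50 bp single-end reads. Per the methods of the study, reads were trimmed with TrimGalore, aligned with STAR to GRCh38 with GENCODE 25 and quantified with Cufflinks 2.2.1; the submitters' processing notes name Trimmomatic and mm10 instead, but the deposited loci match human GRCh38 genes. The table gives FPKM per gene as deposited by the authors, with no counts, and strand handling is not given in the sources used here. The vehicle was 1% dimethyl sulfoxide per the labels, while the methods give a lower limit. FPKM values were tested as log2(FPKM + 0.1) with limma 3.58.1 (R 4.3.3; lmFit, eBayes with a mean-variance trend, two-sided, Benjamini-Hochberg) in the 24468 of 58024 genes whose mean over all 6 libraries reached 0.1 FPKM, so fold changes of low genes are understated. Genes at 0 in all libraries of a group have no fold change. The script was tested on simulated data. Read numbers were estimated from the smallest FPKM steps with an assumed fragment of 200 bases. Gene positions came from GENCODE 44, which matched all 67 members, and shared 50-base words from its transcripts. Values are given for the 3 members with the highest mean and the 3 with the largest and smallest called changes in each array and among unclustered members, for the other members the results turn on, and for the 3 list genes with the smallest adjusted p. Some genes of the lists are not reported here. The members and lists were chosen with earlier results of these data known. Alternatives varied the pseudocount, filter, scaling, variance model, threshold and libraries.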

Additional observations from a re-analysis of the deposited data

How the results depend on the processing

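The count of 52 members called higher was 48 to 51 when 1 library was left out, and 41 to 43 of the clustered and 7 to 8 of the unclustered members were called higher (9303 to 10190 over all genes). It was 20 with a mean of at least 1 FPKM, a filter that removes low genes, with 17 clustered and 3 unclustered members. The members that left the count were all removed by that filter, and none that it kept lost its call. Among members with at most 25% of their 50-base words shared, an alternative chosen after seeing the data, the count was 19. These members include no gamma gene and, of the alpha genes, only PCDHA4. All genes called numbered 6979 with a log2 fold change of at least 1 in addition. The count called lower, 0 for the family and for its clustered members, was 1 (PCDHGB5) with quantile normalization, without a variance trend and without parental replicate 0, so that it ran from 0 to 1, and 0 to 0 among unclustered members. The values that changed sign belonged to members that did not pass the test, and the cause was not tested. PCDHGA8 was -0.0059 with a pseudocount of 1 FPKM, -0.33 with quantile normalization, -0.26 without parental replicate 0 and -0.05 without resistant replicate 2, from -0.26 to 0.28 over the 6 omissions. PCDHGA12 was -0.084 with quantile normalization. PCDH8 was -0.35 with a pseudocount of 0.01 FPKM, -0.53 with quantile normalization, -0.24 without parental replicate 2 and -0.01 without resistant replicate 0, from -0.24 to 0.54 over the omissions. PCDHGC5 was 0.30 without parental replicate 1, from -0.67 to 0.30 over the omissions. The PCDHGC3 call was also lost with no filter, quantile normalization and no variance trend. Same-numbered libraries did not deviate together (r between -0.003 and 0.017). With 3 libraries per group this cannot settle whether the numbers pair them. With the replicate block 49 members were called higher, without PCDH19, PCDHB4 and PCDHGA5. Across the scalings the median of all genes stayed between -0.07 and -0.01. Depth limits values below about 0.1 FPKM, and the 3 libraries per group limit every test.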
